A study of Capra hircus with 40 samples.

Results

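The ovary of Jining gray goats at month 4 after birth was compared with the ovary at month 2, across all genes. The comparison used the 5 month 4 and the 5 month 2 ovary libraries, which are 10 of the 40 libraries of a bulk RNA sequencing series of ovary and uterus. Libraries were chosen by organ and age as the labels give them, and each label names a separate individual. All goats were females kept on 1 farm in the same way, with no treatment and no altered gene, and each library came from a whole ovary with all its cell types mixed. The design addresses how the ovary moves through sexual maturation. Counts over all genes and the medians of the gene lists are also given without month 4 library 5, which was rich in the genes of luteal cells.

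A whole ovary holds oocytes in follicles, the granulosa and theca cells around them, stroma, vessels and a surface epithelium. Granulosa cells carry the receptor for follicle-stimulating hormone and, in large follicles, turn androgens from theca cells into estradiol with aromatase. After ovulation the follicle wall becomes the corpus luteum, which makes progesterone from cholesterol. The Jining gray goat is a Chinese breed known for early puberty and large litters. Ovaries of the same age may thus differ in whether ovulation has begun, which was not tested here. In a mixture of this kind, fewer cells of a type and less RNA per cell cannot be told apart.

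Month 4 libraries held 44.1 to 57.8 M counts and month 2 libraries 46.9 to 60.3 M. The difference was within the spread of the libraries (two-sided exact permutation p = 0.698, where 0.00794 is the smallest p that 5 against 5 allows). Between 19727 and 21461 genes were detected in month 4 libraries and between 20677 and 21455 in month 2 libraries, and the lowest of the 10 was month 4 library 5. Levels are given as CPM, which are counts scaled to 1 M per library after TMM scaling, and a count of 0 allowed a level of up to 0.0532 to 0.0632 CPM depending on the library. CPM takes no account of gene length, so levels were compared between libraries and not between genes. The labelled organ had its defining genes at both ages: ZP2 and ZP3 of the egg coat and FSHR of granulosa cells were above this limit in all 10 libraries.

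The libraries did not part by age. On the first principal component, which held 32.5% of the variance, month 4 libraries 1 to 5 lay at 30.6, -37.8, 105, 132 and -92.4, against -46.4, 52.6, -38.7, -51.7 and -52.8 for month 2 libraries 1 to 5. Month 4 libraries 1, 3 and 4 and month 2 library 2 were thus on the high side, and month 4 library 2 lay among the other month 2 libraries. The second component held 28.5% and set month 4 library 5, at 176, apart from the other 9, which lay between -70.1 and 34.5. Month 4 libraries 1, 2 and 5 and month 2 library 2 correlated better, across genes, with the libraries of the other age than with their own. For month 4 library 2 the median r was 0.892 with its own age and 0.934 with month 2. Whether any of these libraries goes against its age label was not tested. The spread was also wider at month 4: the median over genes of the SD of log2 CPM was 0.56 at month 4, 0.41 without library 5, and 0.36 at month 2.

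**Figure D1:**
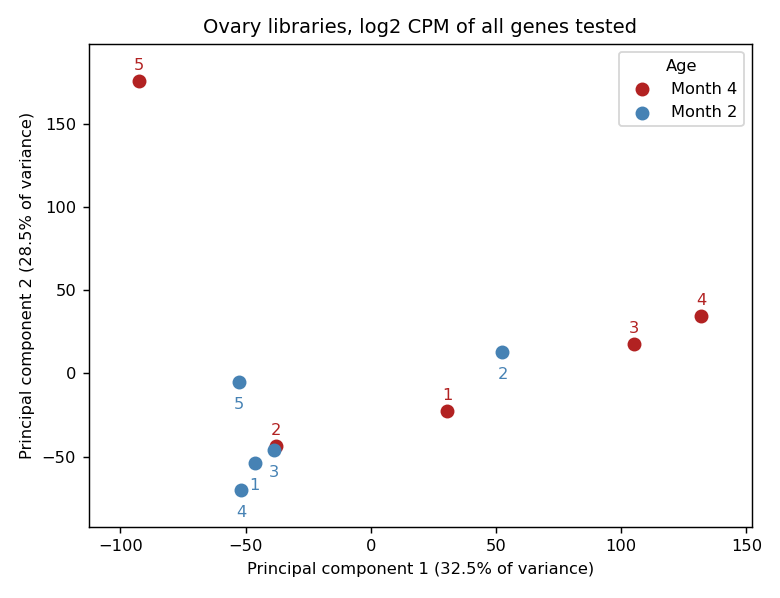
The 10 ovary libraries on the first 2 principal components of log2 CPM over all genes tested, with red points for month 4 and blue points for month 2, numbered by library. Month 4 library 5 stands alone at 176 on the vertical axis, and month 2 library 2 lies at 52.6 on the horizontal axis, between month 4 libraries 1 and 3.

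Single libraries held genes that no other library of the 10 shared at that level. Month 4 library 5 had 202 genes at 10 CPM or more and at least 5 times above the highest of the other 9 libraries. Month 4 library 4 had 15 such genes and month 2 library 2 had 14, while each other library had at most 3. The 15 of month 4 library 4 included CYP19A1, the aromatase, at 820 CPM against at most 39.2 elsewhere. They also included INHBA, the activin A and inhibin A subunit, at 107 CPM against at most 10.5. In month 2 library 2 they included POLE2, a subunit of DNA polymerase epsilon, at 7330 CPM against at most 14.7, and the mitochondrial ribosomal RNA gene KEF96_r01 at 497 CPM against at most 86.4, with most of the rest being loci assembled from the reads. Whether the POLE2 counts come from transcripts of that gene was not tested. POLE2 and KEF96_r01 were named after their values were seen.

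No gene was called between month 4 and month 2. Of 19671 genes tested with edgeR's quasi-likelihood test, 0 (0%) passed a Benjamini-Hochberg adjusted p of 0.05 together with a log2 fold change of 1 or more either way, and the lowest adjusted p was 0.549. At an unadjusted p under 0.05 there were 1751 genes (8.90%), of which 1270 (6.46%) were higher and 481 (2.45%) lower at month 4. DESeq2 on the same libraries called 22 genes, 17 higher and 5 lower, among them PTPRR, XYLB, CT55, ATP8A2 and TXLNB, described below. Without month 4 library 5, 0 of 19937 genes (0%) were called, the lowest adjusted p was 0.681, and 1450 genes (7.27%) had an unadjusted p under 0.05, 1050 (5.27%) higher and 400 (2.01%) lower. DESeq2 then called 14 genes, 7 in each direction, with PTPRR, XYLB, ATP8A2 and PTX3 among them. No gene named below rose or fell by the edgeR test, and the values that follow describe these libraries.

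Leaving out that 1 library changed which genes stood out. Of the 1751 genes with an unadjusted p under 0.05, 902 (51.5%) also had one without library 5 and the same sign, which is 63.3% of the 1426 found without it among genes tested both ways. The sign of the fold change differed in 2812 of the 19671 genes (14.3%). Over all genes 54.2% had a fold change above 0 with all 10 libraries and 51.3% without library 5, with a median log2 fold change of 0.04 and 0.01. A log2 fold change of 1 or more was found in 10.9% of genes and one of -1 or less in 4.16%, or 9.53% and 3.75% without library 5.

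Some genes did not overlap between the ages in any library. Month 4 was above month 2 throughout in 196 genes (0.996%) and below it throughout in 261 (1.33%). This split moved with the scaling, since CPM on plain library totals gave 298 above and 147 below, so that 67% rather than 42.9% were above. Without month 4 library 5 the counts were 392 above (1.97%) and 393 below (1.97%), or 637 and 205 on library totals. The genes named next are those of lowest unadjusted p, 6 in each direction, among the named genes of this kind with a log2 fold change of at least 1 either way.

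PTPRR, a receptor-type tyrosine phosphatase, was at 9.58, 16.2, 14.3, 14.7 and 33.1 CPM in month 4 libraries 1 to 5, against 5.34, 5.41, 4.32, 8.02 and 6.54 CPM in month 2 libraries 1 to 5. Every month 4 library was above every month 2 library, and library 5 was the highest. The log2 fold change was 1.57 ± 0.32 (SE), with an edgeR adjusted p of 0.549, and without library 5 it was 1.21 ± 0.27, with an adjusted p of 0.681. XYLB, the xylulokinase, was at 2.00, 2.23, 3.03, 1.94 and 1.92 CPM at month 4 against 0.87, 0.779, 0.815, 0.57 and 0.97 CPM at month 2. Here library 5 was the lowest of the month 4 libraries and still above each month 2 library, and the log2 fold change was 1.48 ± 0.31 with library 5 and 1.52 ± 0.32 without it. HES4, a transcription factor of the Notch pathway, was at 26.0, 20.7, 40.4, 30.0 and 19.3 CPM at month 4 against 15.4, 13.9, 13.3, 13.7 and 11.2 CPM at month 2. Its log2 fold change was 1.02 ± 0.26, and month 4 library 3 was the highest.

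HECW2, a ubiquitin ligase, was at 18.6, 27.4, 28.6, 36.6 and 123 CPM at month 4 against 15.0, 17.9, 13.7, 14.9 and 13.9 CPM at month 2. Its groups did not overlap, but the lowest month 4 and the highest month 2 value were close, and the log2 fold change was 1.65 ± 0.41 with library 5 and 0.89 ± 0.27 without it. NUDT13 was at 2.20, 1.71, 5.68, 4.84 and 5.57 CPM at month 4 against 1.02, 1.48, 1.22, 1.69 and 1.54 CPM at month 2, with month 4 library 2 only just above the highest month 2 library. CT55, a cancer and testis antigen gene, lay between 0.125 and 1.42 CPM at month 4 and between 0 and 0.118 CPM at month 2, a range that rests on few counts.

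In the other direction, ATP8A2, a flippase that moves phospholipids across membranes, was at 3.83, 1.20, 1.34, 2.74 and 1.98 CPM at month 4 against 8.54, 6.53, 7.85, 4.91 and 7.04 CPM at month 2. Every month 4 library was below every month 2 library, and the log2 fold change was -1.65 ± 0.37 with library 5 and -1.61 ± 0.41 without it (edgeR adjusted p = 0.549 and 0.681). MFAP3L was at 12.3, 8.15, 7.49, 7.75 and 5.79 CPM at month 4 against 20.2, 15.3, 14.0, 16.8 and 26.6 CPM at month 2. TOX, a chromatin protein known from T cell development, was at 2.49, 2.68, 3.43, 4.40 and 0.415 CPM at month 4 against 4.72, 6.73, 9.0, 4.6 and 13.4 CPM at month 2. For TOX the nearest pair was month 4 library 4 and month 2 library 4, and library 5 was far below the rest.

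TXLNB was at 0.751, 0.653, 0.689, 0.267 and 0.83 CPM at month 4 against 1.60, 1.34, 8.70, 1.63 and 5.44 CPM at month 2, with month 2 libraries 3 and 5 well above the others. OTX2, a homeobox transcription factor of head development, was at 0 in all 5 month 4 libraries, against 0.367, 0.26, 0.159, 0.118 and 0.038 CPM at month 2. By counting error alone, its 49 pooled counts at month 2 made it at least 16.3-fold lower at month 4, taking 3 counts over the 5 month 4 libraries as the limit. That bound leaves out the spread between libraries, and the edgeR adjusted p was 0.549. Month 2 library 5, at 0.038 CPM, was below the level that a count of 0 allows, so its separation from month 4 is not shown. SH2D6 stood at similarly low levels, between 0.019 and 0.0894 CPM at month 4 and between 0.157 and 0.439 CPM at month 2.

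**Figure D2:**
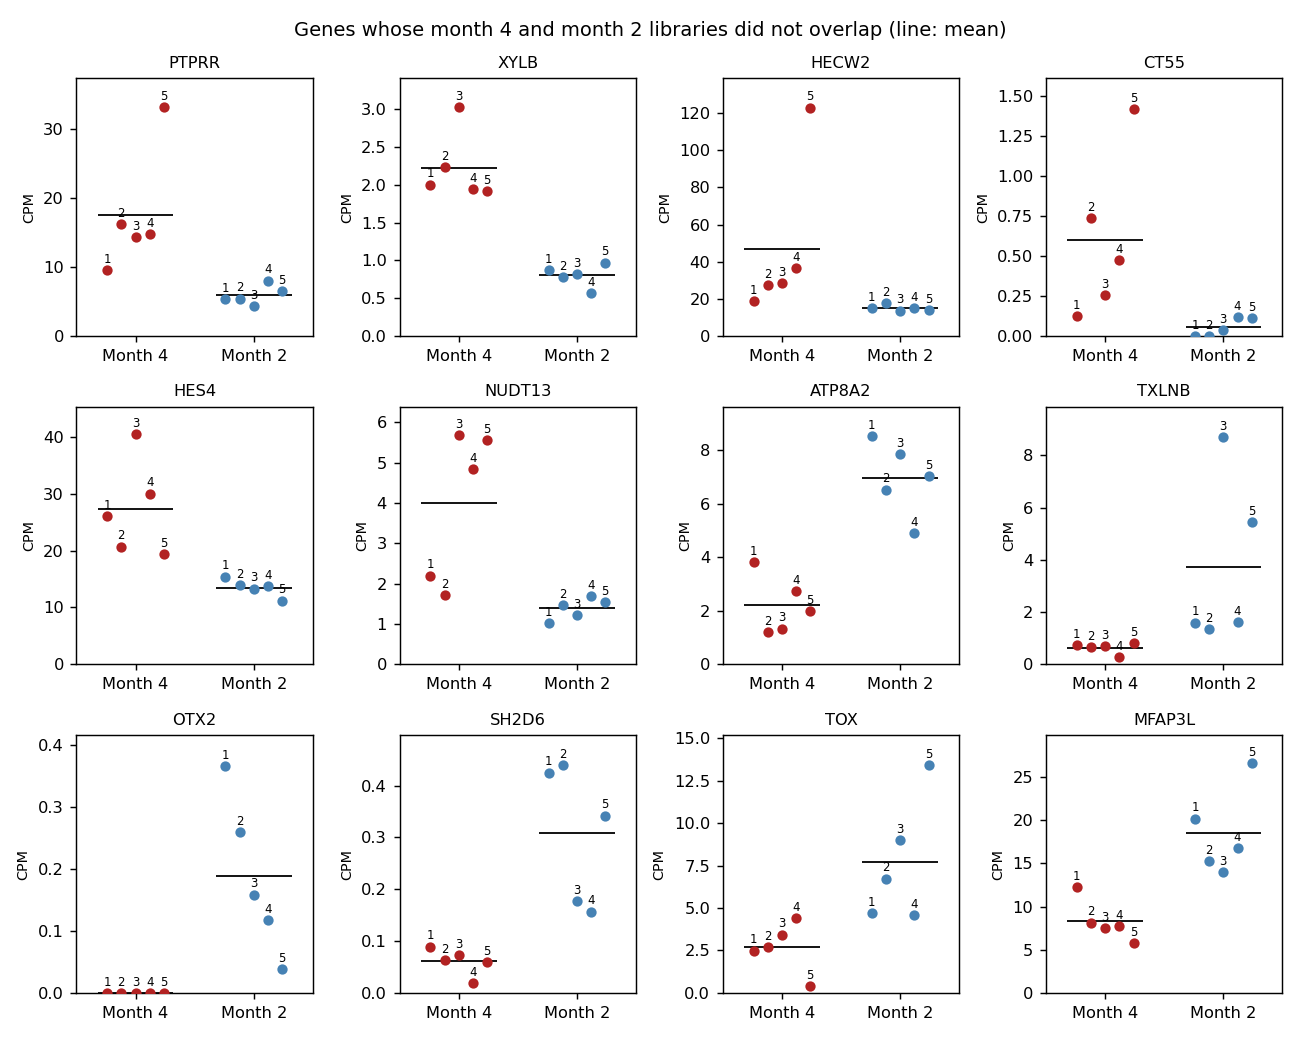
CPM of 12 genes whose month 4 and month 2 ovary libraries did not overlap, with 1 point per library, numbered, and a line at the group mean. The 6 genes from PTPRR to NUDT13 were higher at month 4 and the 6 from ATP8A2 to MFAP3L lower, and in HECW2 the month 4 mean is drawn up by library 5 at 123 CPM.

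Without month 4 library 5 the rule added 3 genes that were higher and 2 that were lower at month 4. IL17RE, an interleukin 17 receptor subunit of epithelia, was at 3.92, 2.21, 8.72 and 4.68 CPM in month 4 libraries 1 to 4 and at 0.455 CPM in library 5, against 0.561, 1.62, 0.567, 0.825 and 0.437 CPM at month 2. Only library 5 lay within the month 2 range, and the log2 fold change was 2.32 ± 0.74 with it and 2.61 ± 0.68 without it. CCDC125 had the same pattern, at 8.4, 8.72, 16.6, 19.4 and 3.62 CPM at month 4 against 3.87, 4.31, 5.32, 6.13 and 2.49 CPM at month 2. ASIC1 had little signal, at 0.218 to 0.483 CPM in month 4 libraries 1 to 4 and at 0 in library 5, against 0 to 0.106 CPM at month 2.

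PTX3, a pentraxin of the cumulus matrix in the ovulating follicle, turned round with library 5. It was at 1.5, 1.66, 0.762 and 1.90 CPM in month 4 libraries 1 to 4 and at 42.2 CPM in library 5, against 6.11, 5.29, 14.0, 2.55 and 14.3 CPM at month 2. Libraries 1 to 4 were all below month 2 and library 5 was above it, so the log2 fold change was 0.19 ± 0.88 with library 5 and -2.53 ± 0.59 without it (edgeR adjusted p = 0.953 and 0.681). TMEM229A had 0.0358 CPM in month 4 library 1 and 0 in libraries 2 to 4, with 0.198 CPM in library 5, against 0.114 to 0.561 CPM at month 2. It passed the filter on low counts only in the fit without library 5, although library 5 held its highest month 4 value.

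Oocyte genes had lower values at month 4, though none was called. All 25 oocyte genes tested had a log2 fold change below 0, with a median of -0.99 where all genes had 0.04. At an unadjusted p under 0.05, 2 of them were lower, as were 2.45% of all genes. The number of oocyte genes was 6 without day 1 library 3 and 5 in a fit of only the 10 libraries compared. Over all genes, 2195 and 2418 were under 0.05 in these fits, against 1751 in the main fit. Without library 5, 24 of the 25 were below 0 with a median of -0.72, and leaving out any other single library kept the median between -1.41 and -0.70. The summed oocyte level was 202, 296, 128, 113 and 18.4 CPM at month 4 against 409, 106, 327, 493 and 172 CPM at month 2. The sums overlapped, since month 2 library 2 was as low as the low month 4 libraries, and library 5 was the lowest of all.

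In the oocyte list 3 of the 25 genes did not overlap between the ages and were lower at month 4, as were 1.33% of all genes. WEE2, the oocyte kinase that holds meiosis in check, was at 1.36, 1.60, 1.25, 0.781 and 0.158 CPM at month 4 against 12.6, 1.72, 4.71, 5.64 and 5.13 CPM at month 2, with a log2 fold change of -2.53 ± 0.90. BTG4, needed for clearing maternal messenger RNA, was at 1.54, 0.316, 0.925, 0.971 and 0 CPM at month 4 against 7.75, 2.00, 4.00, 3.81 and 3.56 CPM at month 2. BMP15, an oocyte growth factor linked to litter size in sheep, was at 2.75, 3.54, 2.85, 1.64 and 0.0593 CPM at month 4 against 13.2, 3.71, 5.62, 5.21 and 6.33 CPM at month 2. In all 3 genes the month 2 library nearest to month 4 was library 2. None was called, with an edgeR adjusted p of 0.549 for WEE2 and BTG4 and 0.6 for BMP15.

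Other oocyte genes overlapped. GDF9, the partner of BMP15, was at 6.13, 8.43, 2.99, 5.67 and 1.40 CPM at month 4 against 13.4, 4.51, 9.13, 14.2 and 5.76 CPM at month 2, a log2 fold change of -0.93 ± 0.54. ZP2 was at 14.1, 17.4, 11.1, 12.3 and 1.44 CPM at month 4 against 48.8, 15.8, 25.3, 29.9 and 24.9 CPM at month 2, so that only month 2 library 2 fell within the month 4 range. ZP3 ran from 1.98 to 27.9 CPM at month 4 and from 5.65 to 88.0 CPM at month 2, and DDX4, an RNA helicase of all germ cells, from 1.49 to 5.12 CPM and from 1.82 to 9.43 CPM. Of 19 meiosis genes tested 5 were above 0, with a median of -0.36 and 0 at an unadjusted p under 0.05. Single libraries moved this median, to -0.10 with 7 above 0 without month 4 library 5, to -0.93 without month 4 library 2, and to -0.13, -0.18 and -0.58 without month 2 libraries 4, 1 and 5. SYCP3, of the synaptonemal complex, was at 0.119 to 2.38 CPM at month 4 and 0.28 to 2.10 CPM at month 2.

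Granulosa cell genes varied more between month 4 libraries than between the ages. Of 20 genes tested 10 were above 0, with a median of -0.02, or 8 with a median of -0.21 without library 5. AMH, the anti-Mullerian hormone of small growing follicles, was at 156, 6.78, 43.7, 54.2 and 1.96 CPM at month 4 against 129, 108, 169, 168 and 147 CPM at month 2. FSHR was at 122, 7.46, 32.9, 67.9 and 9.35 CPM at month 4 against 134, 89.3, 173, 115 and 119 CPM at month 2. In both genes month 4 library 1 was within the month 2 range and the other 4 were below all month 2 libraries. The log2 fold changes were -1.45 ± 1.27 and -1.39 ± 1.17, or -1.14 ± 1.29 and -1.13 ± 1.24 without library 5.

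Month 4 library 4 was the highest of the 10 in genes of estradiol and inhibin synthesis. CYP19A1 was at 15.8, 14.9, 31.4, 820 and 39.2 CPM at month 4 against 12.2, 22.5, 14.0, 20.6 and 11.3 CPM at month 2, and INHBA was at 2.95, 10.5, 6.65, 107 and 4.90 CPM against 7.62, 6.85, 3.69, 4.99 and 4.94 CPM. Apart from library 4, month 4 overlapped month 2 in both genes. INHA, the inhibin alpha subunit, was highest in the same library, at 74.4, 10.6, 50.7, 180 and 9.45 CPM at month 4 against 38.0, 44.4, 54.7, 55.2 and 48.1 CPM at month 2. FOXL2, a transcription factor of granulosa cells, was at 0.8 CPM there, the lowest of the 10, where the other month 4 libraries had 13.2 to 31.1 CPM and month 2 libraries 7.02 to 66.2 CPM. The median of the 20 granulosa genes was -0.48 without library 4.

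Steroid synthesis genes followed 1 library in part, with 7 of the 13 at least 5 times above all others in month 4 library 5. The theca genes CYP17A1 and INSL3 did not rise in it. Of 13 steroid synthesis genes tested 8 were above 0 with a median of 1.33. Of these genes 5 had an unadjusted p under 0.05, all higher, where 6.46% of all genes were higher at that p. The number of steroid synthesis genes was 3 with DESeq2 and 0 with limma-voom, another test of the same libraries. Without month 4 library 5, 3 were above 0, the median was -0.32, and 1 gene, lower at month 4, had an unadjusted p under 0.05. STAR, which carries cholesterol into mitochondria, was at 7.06, 4.47, 3.52, 5.10 and 2900 CPM at month 4 against 38.2, 17.5, 14.4, 4.85 and 8.23 CPM at month 2. Library 5 was above all others, and libraries 1 to 4 were below the middle of month 2 or under its lowest library, so the log2 fold change was 5.14 ± 1.68 with library 5 and -1.72 ± 0.76 without it (edgeR adjusted p = 0.549 and 0.681).

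CYP11A1, the enzyme that cuts the cholesterol side chain, was at 130, 43.8, 51.5, 235 and 13200 CPM at month 4 against 77.7, 141, 198, 98.6 and 133 CPM at month 2. Month 4 libraries 2 and 3 were below month 2 and library 4 slightly above it. CYP17A1, the theca enzyme of androgen synthesis, was instead lowest in library 5, at 50.9, 8.43, 17.5, 42.1 and 2.63 CPM at month 4 against 12.8, 75.7, 108, 25.0 and 35.6 CPM at month 2. INSL3, a peptide hormone of theca cells, was at 1.1 to 26.4 CPM at month 4 and 4.50 to 27.7 CPM at month 2. LHCGR, the receptor of luteinizing hormone, was at 25.4, 4.36, 8.83, 21.1 and 326 CPM at month 4 against 9.72, 28.4, 26.4, 29.6 and 21.5 CPM at month 2.

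Of the 19 ovulation and luteal genes, 6 were at least 5 times above the highest of the other 9 libraries in month 4 library 5. PTGFR, the receptor by which prostaglandin F2 alpha ends the life of the corpus luteum, was at 9830 CPM there, against 40.6 to 216 CPM in the other month 4 libraries and 45.7 to 99.8 CPM at month 2. OXT, oxytocin, which the ruminant corpus luteum makes, was at 1770 CPM there, against 0 to 5.94 CPM in the other month 4 libraries and 0.0773 to 0.359 CPM at month 2. PRLR, the prolactin receptor, was at 948 CPM against 3.08 to 6.26 CPM and 4.83 to 13.4 CPM. Among genes with a symbol that is no LOC identifier, the others of largest ratio to the next library were SRD5A2, SLC16A12, 3BHSD, IL6, RGN, TFF2 and PTHLH, at 49.1 to 5690 CPM in library 5 and 73.3 to 588 times above the highest of the other 9. These ratios chose the genes and are a description of 1 library. Among them 3BHSD, a 3-beta-hydroxysteroid dehydrogenase, was at 5690 CPM in library 5 against at most 30.4 CPM in the other 9. The steroid synthesis list sought this enzyme as HSD3B1 and HSD3B, which were not found, so the 13 genes tested in that list leave it out.

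The ovulation and luteal list as a whole was split in the other 4 month 4 libraries. The 19 ovulation and luteal genes tested had a median of 1.42 with 16 above 0, and 0.46 with 11 above 0 without library 5. Without library 5, 7 of the 19 had an unadjusted p under 0.05, where all genes had 7.27%. Of these 4 were higher at month 4 and 3 were lower, namely PTX3, STAR and TIMP1, an inhibitor of matrix proteases. PTGS2, the prostaglandin synthase that ovulation needs, was at 3.86, 8.19, 3.97 and 3.39 CPM in month 4 libraries 1 to 4 and at 2.45 CPM in library 5, against 2.42, 2.96, 1.17, 2.65 and 2.15 CPM at month 2. TIMP1 and PTGS2 were named after their values were seen.

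**Figure D3:**
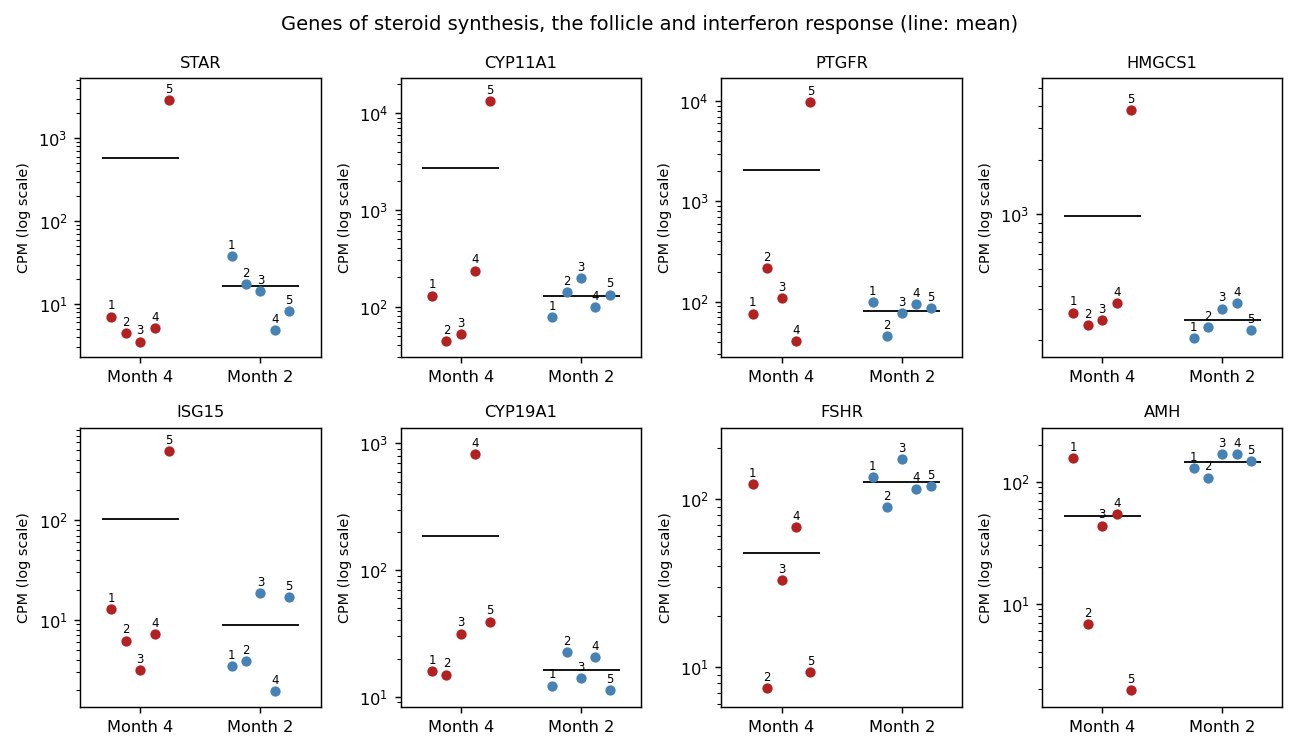
CPM on a log scale of 8 genes of steroid synthesis, the follicle and interferon response in each ovary library, numbered, with a line at the group mean. Month 4 library 5 stands above all others in STAR, CYP11A1, PTGFR, HMGCS1 and ISG15, month 4 library 4 in CYP19A1 at 820 CPM, and 4 of 5 month 4 libraries lie below month 2 in FSHR and AMH.

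Cholesterol synthesis and interferon genes stood out in the same library. All 21 cholesterol genes tested were above 0 with a median of 1.37, where 54.2% of all genes were above 0. Of the 21, 15 were higher at an unadjusted p under 0.05, as were 6.46% of all genes. That number was 9 without month 2 library 1 or 5, and 11 in a fit of only the 10 libraries compared. Without library 5 the median was 0.08 with 16 above 0, and 1 was higher under 0.05, as were 5.27% of all genes. With all libraries, the number under 0.05 was 15 with DESeq2 and 1 with limma-voom. In library 5, 15 of the 21 were at least 5 times above the highest of the other 9 libraries. HMGCS1, which makes the precursor of mevalonate, was at 285, 243, 260, 320 and 3770 CPM at month 4 against 205, 237, 300, 322 and 228 CPM at month 2. The first 4 lay within the month 2 range. SC5D, a late enzyme of the pathway, was the exception that did not overlap, at 80.0, 80.0, 97.2, 135 and 534 CPM at month 4 against 57.8, 62.1, 69.1, 74.9 and 60.4 CPM at month 2, with a log2 fold change of 0.60 ± 0.28 without library 5 (edgeR adjusted p = 0.681).

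Of 29 interferon response genes 28 were above 0 with a median of 1.38. Of these genes 19 had an unadjusted p under 0.05, all higher, where 6.46% of all genes were higher at that p. The number of interferon genes was 10 without month 2 library 1, 9 without month 2 library 4 and 11 in a fit of only the 10 libraries compared. With DESeq2 9 were under 0.05, all higher, and with limma-voom 1 was, and it was lower at month 4. Without library 5, 12 of 29 were above 0, the median was -0.04 and 1 gene, lower at month 4, was under 0.05. ISG15, a ubiquitin-like protein of antiviral defence, was at 12.9, 6.21, 3.14, 7.18 and 486 CPM at month 4 against 3.46, 3.87, 18.7, 1.95 and 16.9 CPM at month 2. Library 5 was the only one outside the month 2 range. The antiviral genes IFIT3 and IFI44L were at 410 and 516 CPM in library 5, against 24.7 to 44.9 and 34.0 to 55.6 CPM in the other month 4 libraries, and 22.4 to 34.9 and 29.7 to 42.4 CPM at month 2.

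Motile cilia genes gave the largest list median. All 28 tested were above 0 with a median log2 fold change of 2.79, and 6 had an unadjusted p under 0.05. Without library 5 all 29 tested were above 0 with a median of 3.12 and 10 under 0.05. Over all genes, 6.46% were higher at that p with library 5 and 5.27% without it. The summed level was 503, 126, 2220, 4020 and 60.8 CPM at month 4 against 108, 826, 99.5, 90.5 and 67.3 CPM at month 2. Month 4 libraries 4, 3 and 1 and month 2 library 2 were the 4 highest, month 4 library 2 was close to the other month 2 libraries, and library 5 was the lowest. The order of the 4 highest was that of the first principal component. The median was 4.61 without month 2 library 2, 4.91 without both that library and month 4 library 5, and 1.89 without month 4 library 4. The number at an unadjusted p under 0.05 was 26 without month 2 library 2, 0 without month 4 library 4 or month 2 library 1, and 1 to 3 without month 4 library 3 or month 2 library 3, 4 or 5. With all libraries it was 15 with DESeq2 and 1 with limma-voom.

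FOXJ1, the master regulator of motile cilia, was at 20.6, 0.337, 77.1, 129 and 0 CPM at month 4 against 1.39, 29, 1.47, 0 and 0.228 CPM at month 2, with a log2 fold change of 2.83 ± 2.15. RSPH1 and RSPH9, of the radial spokes that set the beat, were at 0.716 to 10.1 and 0.421 to 23.4 CPM at month 4 and at 0.0761 to 2.36 and 0.255 to 2.62 CPM at month 2. Both genes had their month 2 maximum in library 2. None of the 3 was called (edgeR adjusted p = 0.673, 0.549 and 0.549).

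Glandular and surface epithelium genes ran alongside. All 19 oviduct and glandular epithelium genes were above 0, with a median of 2.23, which was 2.54 without library 5, 1.44 without month 4 library 4 and 3.15 without month 2 library 2. Their sum was 256, 91.6, 760, 1280 and 35.3 CPM at month 4 against 89.1, 281, 98.7, 73.4 and 47.2 CPM at month 2. Again month 4 libraries 4 and 3 were highest, and month 2 library 2 was slightly above month 4 library 1. CLDN4, a tight junction claudin, was at 1.39, 0.695, 3.10 and 9.50 CPM in month 4 libraries 1 to 4 and 0.119 CPM in library 5, against 0.425, 0.459, 0.106, 0.0786 and 0.0761 CPM at month 2. SOX17, a transcription factor, was at 8.23, 5.29, 17.4, 19 and 13.8 CPM at month 4 against 4.93, 5.81, 4.27, 4.17 and 4.05 CPM at month 2, where only month 4 library 2 lay within the month 2 range. Of 13 mesothelium and ovarian surface genes 12 were above 0, with a median of 0.86, or 0.98 without library 5 and 0.57 without month 4 library 4, and MSLN, mesothelin of that surface, was at 5.54, 1.56, 14.5, 36.5 and 12.1 CPM at month 4 against 0.947, 5.35, 3.63, 1.91 and 1.29 CPM at month 2. How much epithelium of the ovary or of adjoining tissue each sample held was not tested.

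**Figure D4:**
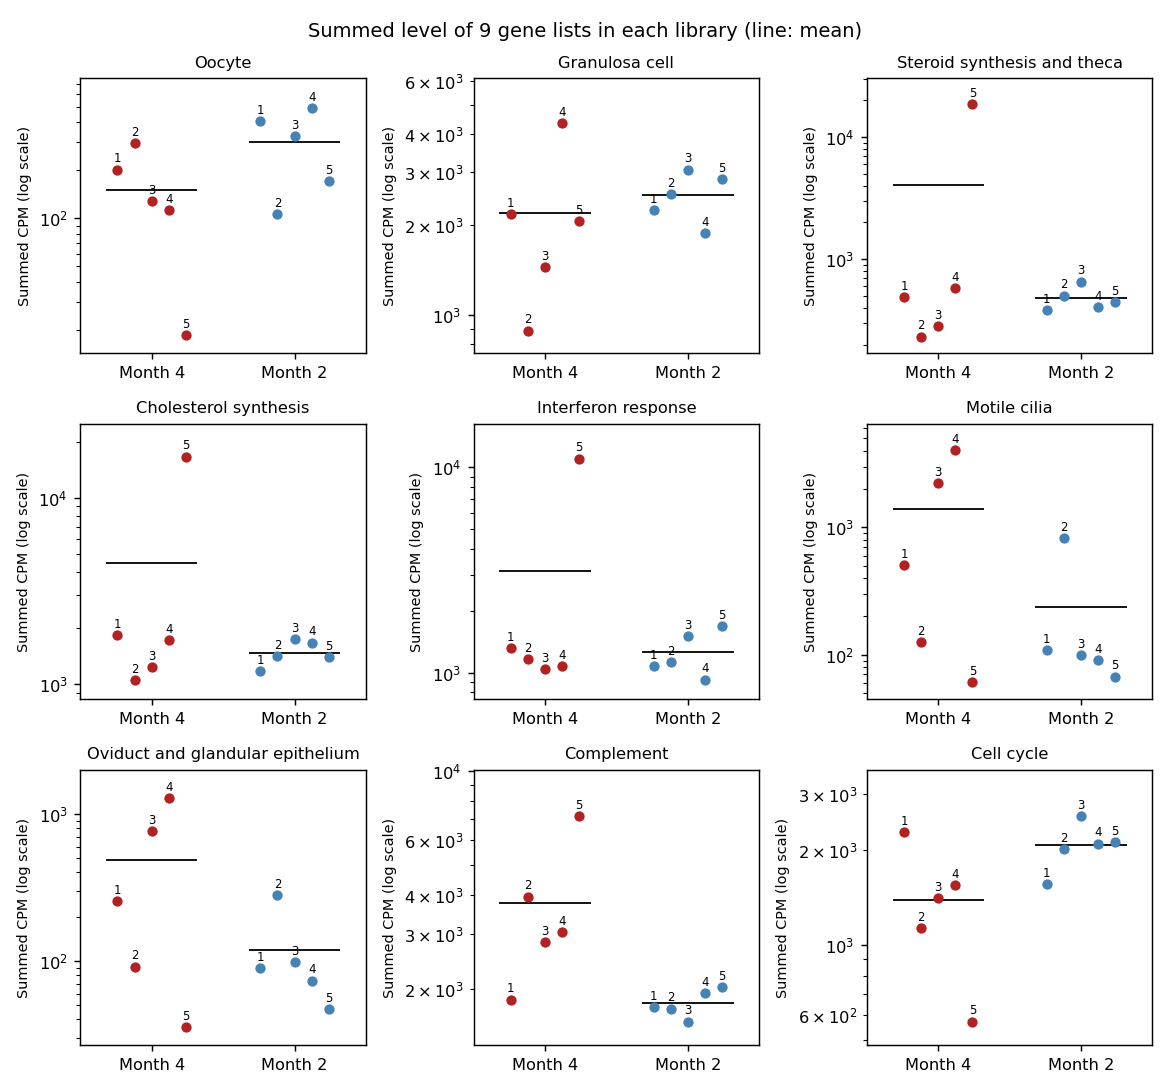
Summed CPM of 9 gene lists in each ovary library on a log scale, numbered, with a line at the group mean. Month 4 library 5 is the highest in steroid, cholesterol, interferon and complement genes and the lowest in oocyte and cell cycle genes, while month 4 libraries 1, 3 and 4 and month 2 library 2 are the highest in motile cilia genes.

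Of 14 genes tested in the nerve and Schwann cell list 12 were above 0 with a median of 0.74, which was 0.91 without library 5 and 0.31 without month 4 library 2, and S100B and ERBB3 had the lowest unadjusted p. S100B, a calcium-binding protein, was at 259, 10.9, 463, 595 and 9.41 CPM at month 4 against 7.13, 68.2, 10.5, 4.95 and 4.92 CPM at month 2, and ERBB3, a neuregulin receptor, at 22.6, 25.2, 81.7, 224 and 3.66 CPM against 8.91, 21.6, 7.80, 6.64 and 7.47 CPM. S100B was highest in the 4 libraries that were highest in cilia genes, whereas ERBB3 was slightly higher in month 4 library 2 than in month 4 library 1 or month 2 library 2. SOX10, a transcription factor that defines Schwann cells, ran otherwise and was at 0.644, 2.09, 0.743, 0.171 and 0.573 CPM at month 4 against 1.06, 0.559, 0.319, 0.314 and 0.152 CPM at month 2, with month 4 library 2 the highest. SOX10 was named after its values were seen.

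Complement genes had higher values at month 4 in most libraries, with and without library 5, and none was called. Of 21 tested, 20 were above 0 in both comparisons, with a median of 1.23, or 0.66 without library 5. Of these genes 13 or 2 had an unadjusted p under 0.05, all higher, where 6.46% or 5.27% of all genes were higher. The number of complement genes was 6 without month 2 library 3, 8 without month 2 library 4 and 16 in a fit of only the 10 libraries compared. With all libraries it was 14 with DESeq2 and 5 with limma-voom. The sum was 1850, 3960, 2820, 3050 and 7190 CPM at month 4 against 1750, 1730, 1570, 1940 and 2030 CPM at month 2, so that only month 4 library 1 lay within the month 2 range. C3, the central component, was at 399, 1030, 644, 817 and 1420 CPM at month 4 against 420, 500, 196, 278 and 240 CPM at month 2, with a log2 fold change of 1.40 ± 0.63 and 1.15 ± 0.65 without library 5 (edgeR adjusted p = 0.553 and 0.733). CFB, a protease of the alternative pathway, did not overlap, at 25.2, 22.3, 41.3, 122 and 22.6 CPM at month 4 against 21.3, 20.1, 9.20, 14.4 and 9.45 CPM at month 2, and it was named after its values were seen. MASP1, a protease of the lectin pathway, was at 1.61, 6.42, 4.64, 9.31 and 52.0 CPM at month 4 against 2.07, 2.42, 2.32, 1.83 and 3.23 CPM at month 2.

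Immune cell genes differed less. Of 17 macrophage and myeloid genes 13 were above 0 with a median of 0.73, or 9 with a median of 0.10 without library 5, and their sum was 1300 CPM in library 5, 265 to 417 CPM in the other month 4 libraries and 223 to 485 CPM at month 2. CD14, the lipopolysaccharide co-receptor of monocytes, was at 6.20, 11.8, 17.5, 30.6 and 29.3 CPM at month 4 against 8.97, 10.1, 5.69, 4.56 and 4.15 CPM at month 2, so that 4 month 4 libraries were above all of month 2. Of 23 lymphocyte genes 16 were above 0 with a median of 0.35, or 17 with a median of 0.24 without library 5, and the median was 0.06 without month 4 library 2. Antigen presentation genes had a median of 0.23, and -0.08 without library 5, and B2M, the light chain of class I molecules, was at 734 to 1710 CPM at month 4 and 616 to 848 CPM at month 2.

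Genes of cell division also had lower values, with none called. All 37 cell cycle genes were below 0 with a median of -0.67, and 34 were below 0 with a median of -0.44 without library 5. Of these genes 1 and 0 had an unadjusted p under 0.05, where 2.45% and 2.01% of all genes were lower at that p. The number of cell cycle genes was 5 without month 4 library 1 and 6 in a fit of only the 10 libraries compared. On plain library totals 1 of the 37 was above 0. The sum was 2280, 1130, 1410, 1550 and 573 CPM at month 4 against 1560, 2010, 2550, 2090 and 2110 CPM at month 2. MCM5, of the helicase that opens DNA for replication, was at 48.6, 33.5, 24, 22.2 and 8.10 CPM at month 4 against 54.8, 46.2, 64.6, 62.7 and 57.3 CPM at month 2, where only month 4 library 1 reached into the month 2 range. Its log2 fold change was -1.06 ± 0.44, or -0.83 ± 0.41 without library 5 (edgeR adjusted p = 0.549 and 0.686). MKI67 and TOP2A, a proliferation antigen and a topoisomerase, had -0.84 ± 0.77 and -0.76 ± 0.67 and overlapped broadly. Without library 5 they had -0.59 ± 0.79 and -0.52 ± 0.68.

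All 30 ribosomal protein genes were below 0, with a median of -0.40, and -0.35 without library 5. Of these genes 12 and 2 had an unadjusted p under 0.05, where 2.45% and 2.01% of all genes were lower at that p. The number of ribosomal protein genes was 27 without month 2 library 2 and 20 without month 4 library 1. It was 1 without month 2 library 3, month 2 library 5 or month 4 library 2, 2 without month 2 library 4 and 4 without month 4 library 3. It was 4 in a fit of only the 10 libraries compared and 6 on library totals. The sum was 60300, 42300, 46200, 48700 and 38900 CPM at month 4 against 54800, 38400, 73800, 70400 and 76800 CPM at month 2, and month 2 library 2 was the lowest of the 10. RPS2 was at 1800 to 3180 CPM at month 4 and at 1820 to 4990 CPM at month 2, with a log2 fold change of -0.71 ± 0.25. Ribosomal protein genes have many near-identical copies, and how the authors counted shared reads is not given in the sources used here.

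The growth factor lists were split. Of 20 growth hormone, insulin and IGF genes 10 were above 0 with a median of -0.07, or -0.08 without library 5, and of 30 TGF-beta and BMP genes 13 were above 0 with a median of -0.08, or -0.02 without it. PAPPA, a protease that frees IGF from its binding proteins, was at 0.787, 2.32, 1.69, 8.02 and 11.0 CPM at month 4 against 1.1, 0.739, 0.797, 1.38 and 0.57 CPM at month 2, so that library 1 alone lay within month 2, and its log2 fold change was 2.38 ± 0.77, or 1.81 ± 0.75 without library 5. IGF1 was at 130, 594, 355, 141 and 211 CPM at month 4 against 63.2, 281, 77.7, 92.5 and 79.4 CPM at month 2, with a log2 fold change of 1.27 ± 0.58, and all month 4 libraries were above the month 2 libraries other than library 2. IGF2 was at 13.4 to 55.0 CPM at month 4 and 18.4 to 43.1 CPM at month 2. INSR, the insulin receptor, was below month 2 in every month 4 library, at 261, 276, 227, 235 and 165 CPM against 354, 299, 283, 312 and 300 CPM, a log2 fold change of -0.41 ± 0.23. IGF1 and INSR were named after their values were seen.

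Among the BMP genes, NOG, which binds and blocks BMPs, was at 2.86, 1.64, 1.27, 0.914 and 0.198 CPM at month 4 against 4.99, 2.56, 3.54, 3.95 and 2.89 CPM at month 2. Its log2 fold change was -1.38 ± 0.56, or -1.10 ± 0.49 without library 5. Month 4 library 1 was above the lowest month 2 library and the other 4 were below all of month 2. GREM1, another BMP antagonist, was at 33.7 CPM in month 4 library 2 against 1.05 to 3.92 CPM in the other month 4 libraries and 1.63 to 3.75 CPM at month 2, and was named after its values were seen. TGFBR2, a TGF-beta receptor, was at 805 CPM in month 4 library 5, 112 to 155 CPM in the other month 4 libraries and 90.9 to 148 CPM at month 2.

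Genes of the tissue frame had medians nearer to that of all genes. Extracellular matrix genes had a median of 0.14, and -0.15 without library 5, and COL1A1, the main fibrillar collagen, was at 727, 1570, 471, 541 and 1290 CPM at month 4 against 1240, 1060, 808, 707 and 1490 CPM at month 2. FBLN1, a matrix glycoprotein, was at 266, 572, 388, 183 and 311 CPM at month 4 against 232, 243, 146, 259 and 185 CPM at month 2, a log2 fold change of 0.70 ± 0.29. Of 15 smooth muscle genes 12 were above 0 with a median of 0.28, or 14 with 0.36 without library 5, and the median was -0.24 without month 4 library 2, where ACTA2, smooth muscle actin, was at 555 CPM against 120 to 280 CPM in the other month 4 libraries and 97.9 to 277 CPM at month 2.

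All 18 endothelial genes were above 0 with a median of 0.62, but 11 with a median of 0.05 without library 5. EMCN, a sialomucin of capillaries and veins, was at 51.6, 91.6, 117, 170 and 136 CPM at month 4 against 47.1, 61.8, 52.4, 48.6 and 49.7 CPM at month 2, and library 1 alone lay within the month 2 range (log2 fold change 1.13 ± 0.39 and, without library 5, 1.05 ± 0.42, with an edgeR adjusted p of 0.549 and 0.681). KDR, the main VEGF receptor, was at 746 CPM in library 5, 114 to 194 CPM in the other month 4 libraries and 118 to 153 CPM at month 2. PPARG, a nuclear receptor of fat cells that granulosa cells also express, was below month 2 in every month 4 library, at 61.0, 12.5, 26.1, 44 and 12.6 CPM against 67.8, 70.0, 92.4, 71.7 and 80.0 CPM. Its log2 fold change was -1.28 ± 0.66, or -1.09 ± 0.70 without library 5. ADIPOQ, the fat cell hormone adiponectin, was at 0.0363 to 0.476 CPM at month 4 and 0.159 to 0.983 CPM at month 2, and was named after its values were seen.

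The remaining lists describe the state of the samples. Immediate early genes, which rise when tissue is handled, had a median of 0.22, or 0.12 without library 5. Hypoxia and glycolysis genes had a median of -0.24 with 6 of 21 above 0, or -0.30 with 3 above 0 without it. In the glycolysis list HK1, a hexokinase, was below month 2 in every month 4 library, at 48.6, 50.3, 41.1, 48.3 and 53.9 CPM against 72.6, 67.9, 69.0, 65.0 and 60.6 CPM, and was named after its values were seen. Of the 28 oxidative phosphorylation genes written down, 14 were found by symbol, all of them NDUF or SDH genes. Their median was 0.23, and -0.08 without library 5. The UQCR, CYC1, COX and ATP5 genes were not found under the symbols written down, so the median does not cover them. The 4 erythroid genes tested summed to at most 8.80 CPM at month 4 and 9.79 CPM at month 2 in any library, and the adrenal and skeletal muscle genes to at most 9.33 and 8.49 CPM. Of the 9 adrenal and skeletal muscle genes measured, 4 passed the filter on low counts.

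**Figure D5:**
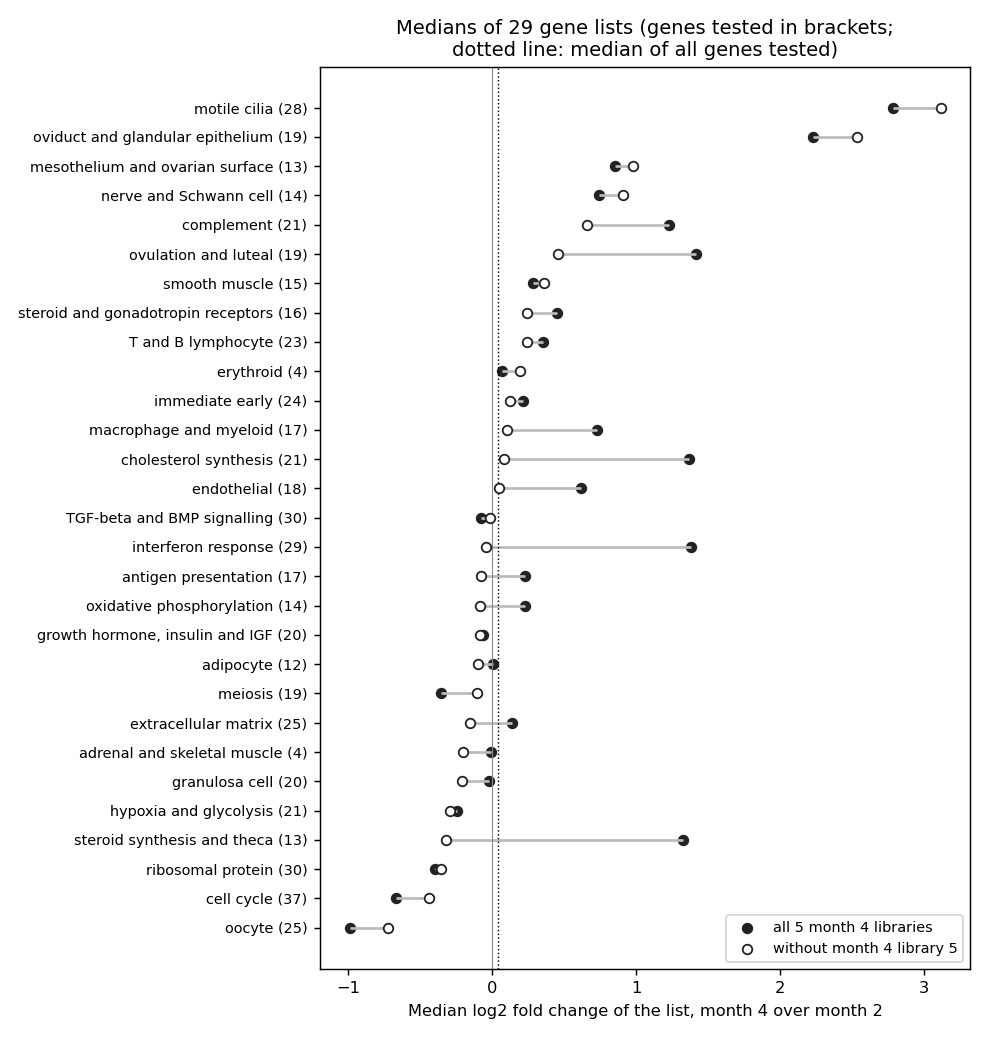
Median log2 fold change, month 4 over month 2, of the tested genes of 29 lists, with filled points for all 5 month 4 libraries, open points without month 4 library 5 and a dotted line at the median of all genes tested. Motile cilia and oviduct lists lie highest and the oocyte list lowest either way, while steroid synthesis moves to -0.32 and interferon response to -0.04 without library 5.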

How the data were processed

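Bulk RNA sequencing of 5 month 4 and 5 month 2 goat ovaries was analysed from raw read counts per gene, whole numbers as deposited by the authors. The tools they ran were RSEM 1.3.0, StringTie 1.3.3b, HISAT2 and fastp 0.23.1, per the submitters' processing notes. Their genome build, annotation, strand setting and handling of shared reads are not given in the sources used. Paralogs, overlapping genes and antisense partners are uncertain for this reason. TRIzol was used to isolate the RNA, per the labels. The 30049 genes held 28910 with an NCBI gene number, all matched to symbols in a RefSeq table (assembly ARS1.2, for naming alone), and 1139 loci assembled from the reads. CYP11A1 and CYP17A1 stand there as LOC102173131 and LOC102182663. No coordinates or sequences are printed.

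All 20 ovary libraries, day 1 to month 6, were fitted together with edgeR 4.0.16 in R 4.3.3 (TMM, filterByExpr, robust quasi-likelihood test, two-sided), and again without month 4 library 5; the month 4 and month 2 contrast was taken from both. A called gene had a p below 0.05 after Benjamini-Hochberg adjustment and a log2 fold change of 1 or more either way. Principal components used log2 CPM with a prior count of 2. The fit was tested on simulated data in which the spread of each gene was capped and no library stood apart. That test therefore does not cover data with a library such as month 4 library 5. Library totals of 44.1 to 60.3 M put the spread between libraries, not counting error, as the limit of precision for all but the lowest genes, and floors cover counting error only. Chi-square per degree of freedom was at least 112 between any 2 libraries of a group, so each counted as 1 sample. EdgeR p-values measure the spread within the ages over all ovary libraries fitted, not only the month 4 and month 2 libraries. Alternatives were DESeq2 1.42.0, limma-voom (limma 3.58.1), other scalings, filters and fits on fewer libraries, a replicate block, and leaving out each library.

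Genes named were any called, the 6 of lowest unadjusted p per direction and fit with a symbol that is no LOC identifier, a log2 fold change of at least 1 either way and groups that did not overlap, 24 reference genes, the 2 of lowest p of each of 29 lists, and, among genes with such a symbol, the 10 with the highest ratio to the next library in month 4 library 5 and at least 20 CPM there. The comparison, its genes and its lists were chosen with earlier results of these data known. Genes outside the rule are marked as such. Results that need items withheld for evaluation are not reported here.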

Additional observations from a re-analysis of the deposited data

Results flagged for a closer look

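A library was set aside for a closer look where its gap to the nearest library of its age, divided by the range of the 5 libraries, passed Dixon's critical value of 0.71. Over 254 groups of 5 values, 32 passed, and many of the values share libraries. Many of the genes had been chosen on these same libraries, by low p, by lack of overlap or by ratio in a single library. The chance rate of about 5% of groups is for values not chosen in this way, so the 32 were not tested against it. All gaps are on the log2 scale except that of genes detected.

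Month 4 library 5 accounted for most of them. It lay far above the other month 4 libraries in STAR (0.897), PTX3 (0.776), HMGCS1 (0.899), SC5D (0.724), ISG15 (0.721), IFIT3 (0.788), IFI44L (0.82), KDR (0.718), TGFBR2 (0.833) and PRLR (0.877). It also lay far above them in the mean of the ovulation and luteal (0.713), cholesterol synthesis (0.839), interferon response (0.866), macrophage and myeloid (0.759) and antigen presentation (0.892) lists. It lay far below them in the number of genes detected (0.863), ZP2 (0.817), BMP15 (0.789), TOX (0.753) and ASIC1 (0.727).

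Month 4 library 4 was far above its group in CYP19A1 (0.759) and far below it in FOXL2 (0.763) and TXLNB (0.782). Month 4 library 2 was high in the mean of the TGF-beta and BMP list (0.775) and of the growth hormone, insulin and IGF list (0.747). At month 2, library 2 was high in ERBB3 (0.752), S100B (0.712) and the mean of the motile cilia (0.756) and oviduct and glandular epithelium (0.84) lists. Month 2 library 4 was low in KDR (0.721) and the mean of the antigen presentation list (0.918), and library 1 in LHCGR (0.712).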

How the results depend on the processing

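The call of 0 genes held with all 10 libraries under fits of only those 10, without day 1 library 3, which lacked ovarian genes, with DESeq2 size factors, with library totals, without a filter, at a minimum of 1 CPM, without a fold minimum, and with limma-voom, and the same settings gave 0 without month 4 library 5. DESeq2 called 22, or 349 in only the libraries compared, and leaving out 1 library gave 0 to 1 genes (1 without month 2 library 5, LOC108635274). Without month 4 library 5, DESeq2 called 14, DESeq2 in only the libraries compared 582, limma-voom in only those 2, and leaving out a further library 0. Without month 2 library 2 as well, edgeR called 0 and 1877 genes had an unadjusted p under 0.05. Fits in only the libraries compared with DESeq2 or limma-voom, and the one without both libraries, were chosen after seeing the data. The library numbers did not pair: deviations of same-numbered libraries correlated at 0.0255, -0.435, -0.137, -0.229 and 0.325, and 1 of 5 matched its own number best; with the replicate block 0 genes were called in both comparisons, with 1193 and 755 at an unadjusted p under 0.05. Of 95 genes followed, 12 turned sign in some alternative, and 22 of 1789 planned values did. Leaving out 1 library moved log2 fold changes over -0.17 to 4.77 for CYP11A1, -0.70 to 0.47 for FOXL2, -0.31 to 0.20 for IGF2, -0.39 to 0.72 for INHA, -0.29 to 3.98 for ISG15, -0.0336 to 1.09 for KDR, -0.63 to 2.09 for LHCGR, -0.98 to 4.80 for PRLR, -2.53 to 0.53 for PTX3, -1.72 to 5.74 for STAR and -1.18 to 0.0229 for SYCP3. With limma-voom, PTX3 stood at -1.39, INHA at -0.34 and IGF2 at -0.0829, and in only the libraries compared at -1.40, -0.34 and -0.0731. With the replicate block, PTX3 stood at -0.876, INHA at -0.10, FOXL2 at 0.18 and IGF2 at -0.018. Without month 4 library 5 and month 2 library 2, PTX3 stood at -2.66, STAR at -1.70, CYP11A1 at -0.14, LHCGR at -0.54, FOXL2 at 0.56, ISG15 at -0.48, KDR at -0.02, PRLR at -1.14 and NDUFA4 at -0.0302. For settings other than those that leave out libraries, the cause was not tested. Depth limits CT55, OTX2, SH2D6, ASIC1 and TMEM229A, which rest on few counts.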
